A study of Mus musculus with 36 samples.

Results

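The transcriptome of the progeny of Lgr5+ stem cells of the hair follicle (HF) was compared 1 week after a second skin wound (1w pw2) and 1 week after the first (1w pw1). The comparison took in every gene of the table, and its 6 libraries, 3 per time point, were chosen by their labels out of 36 in the whole series. All of the cells came from the tail skin of mice that carried Lgr5-EGFP-ires-CreERT2 and a Rosa26 reporter whose loxP-flanked STOP cassette lies before tdTomato, so that hydroxytamoxifen, put on the tail skin a single time, labelled Lgr5+ cells and all of their descendants. These genetically labelled cells are called Lgr5 GL cells. The study used both sexes except where it states otherwise, and gives no sex for these libraries. Mice were labelled at 6 to 8 weeks of age, and the first full-thickness wound, a punch of 2 mm, was made 1 week later (0w). The 1w pw1 cells were collected 1 week after that wound. For 1w pw2 the mice received an identical and overlapping wound 8 weeks after the first, and their cells were collected 1 week later. The mice of 1w pw2 were therefore 8 weeks older, and age, the phase of the hair cycle and the earlier wound cannot be told apart in this comparison. At both times small pools of tdTomato+ cells were sorted from a zone that held the wound bed together with distal HFs, so cells that had moved into new epidermis and cells that had stayed in their follicle entered the same library.

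The HF is kept by stem cells of its lower part, the bulge, which are marked by Lgr5 and rest or divide with the hair cycle. Below the bulge lies the hair germ, the first cells to divide when a new hair grows, and from the matrix the inner root sheath and the hair shaft differentiate. After a wound, HF cells move up and out into the interfollicular epidermis, where they take on the state of activated keratinocytes, with induced stress keratins, remodelled laminin and integrin contacts, actin-driven crawling, cell division and a rise in glucose use.

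Total counts were 4599127, 2052347 and 4930580 in the libraries of 1w pw1 and 6960537, 4884037 and 2367230 in those of 1w pw2. A gene with 3 counts in a library, taken as the floor, corresponds to between 0.389 and 1.70 CPM (counts relative to the library's total, scaled by TMM). The libraries held no molecular identifiers, so intervals and floors cover counting error only. Gm12415, a long intergenic non-coding RNA, took 49.7, 40.5 and 12.04% of the counts at 1w pw1 and 23.0, 16.5 and 27.6% at 1w pw2 (log2 fold change -1.17, edgeR adjusted p = 0.269), and without it 58 genes were called in place of 48. Replicate 1 of 1w pw1 had the lowest TMM factor, 0.668. The study counts its replicates as mice, while the labels give a replicate number only. The defining genes of the labelled tissue were present in all 6 libraries, with Krt15, a bulge keratin, at 4036 CPM or more and Krt5, a basal keratin, at 3896 CPM or more.

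Of 22587 genes in the table, 18025 passed the filter on low counts and 48 were called, which is 0.266% (edgeR's quasi-likelihood F-test, Benjamini-Hochberg adjusted p under 0.05). At 1w pw2 37 genes were higher (0.205% of those tested) and 11 lower (0.0610%). Words such as rose, fell or higher after the second wound set 1w pw2 against 1w pw1 only. They do not describe a change from the level before either wound. A further 249 genes had an adjusted p from 0.05 to 0.1. In each of the 48 genes, which these same libraries chose, the 3 libraries of 1w pw2 lay all above or all below those of 1w pw1. Without a test, 13.7% of all genes lay apart in this way with 1w pw2 higher and 11.0% with 1w pw2 lower, and these percents are the background for the gene lists below. The median log2 fold change of all genes tested was 0.09. The balance of directions moved with the processing. Once every library was corrected for its GC trend, 32 genes were higher and 25 lower, with the same done for transcript length 16 were higher and 16 lower, and with limma-voom 36 were higher and 95 lower. The count also moved with the libraries that entered the fit. With the 6 libraries alone 14310 genes passed the filter, 0 were called, and 2360 had an unadjusted p under 0.05. Without replicate 1 of 1w pw1 6 genes were called, all higher, 4 of them among the 48, and without replicates 1, 2 or 3 of 1w pw2 16, 8 and 11. Without replicate 2 or replicate 3 of 1w pw1 115 and 116 were called.

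**Figure D1:**
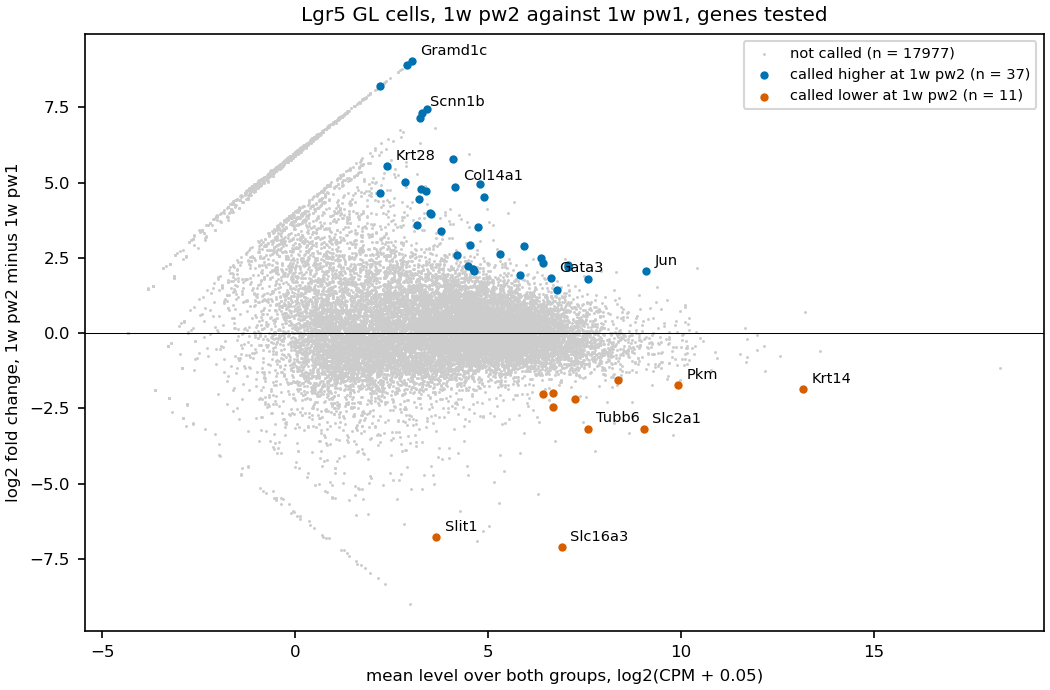
Log2 fold change of each of the 18025 genes tested, 1w pw2 minus 1w pw1 in Lgr5 GL cells (y axis), against its mean level over both groups in log2(CPM + 0.05) (x axis). The 37 genes called higher (blue) lie mostly at low or middle levels, while the 11 called lower (orange) include Krt14, Slc2a1 and Pkm, which are among the abundant genes.

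Genes of glucose uptake and glycolysis made up 4 of the 11 genes that were lower after the second wound. Glycolysis breaks glucose down to pyruvate in the cytosol, and in low oxygen, or in fast-growing cells, pyruvate is turned to lactate and leaves the cell. Of a list of 32 genes of glycolysis and the hypoxia response, all of them tested, 4 fell, Slc16a3, Slc2a1, Pkm and Pfkl, and 0 rose. In 19 of the 32 (59.4%, against 11.0% of all genes) the libraries of 1w pw2 lay below those of 1w pw1, and in 0 above. The median log2 fold change of the list was -1.33.

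Slc2a1 (chromosome 4, 119108711 to 119137983 on GRCm38) encodes Glut1, the main glucose transporter of keratinocytes. Its level was 1775, 455 and 639 CPM at 1w pw1 and 81.8, 106 and 127 CPM at 1w pw2. Replicate 1 of 1w pw1 was the highest, and the lowest library of 1w pw1 still exceeded the highest of 1w pw2. The log2 fold change was -3.19 (standard error 0.52, edgeR adjusted p = 0.0143). Slc16a3 (chromosome 11, 120948480 to 120960868) encodes Mct4, which exports lactate. It had 549, 50.4 and 117 CPM at 1w pw1, and 3.11, 0.833 and 0.753 CPM at 1w pw2, where the latter pair of values lay close to the floor of 3 counts. The log2 fold change of Slc16a3 was -7.11 (standard error 1.12, edgeR adjusted p = 0.0111). Pkm (chromosome 9, 59656368 to 59679375), the pyruvate kinase that makes the last step of glycolysis, had 2238, 1137 and 1164 CPM at 1w pw1 and 475, 426 and 464 CPM at 1w pw2, a 3.32-fold lower level. Pfkl, a phosphofructokinase of the rate-setting early step, had 354, 84.3 and 87.1 CPM at 1w pw1 and 43.8, 24.7 and 27.9 CPM at 1w pw2, which was 5.43-fold lower. Ldha, which turns pyruvate to lactate, did not pass the test (adjusted p = 0.0526), with 2417, 1004 and 1089 CPM at 1w pw1 and 565, 445 and 515 CPM at 1w pw2.

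In each of these 5 genes replicate 1 of 1w pw1 held the highest value. Without that library the median of the list was -0.60, 0 of its members were called, and 19 of the 32 (59.4%, against 15.7% of all genes) lay below 1w pw1. The log2 fold change of Slc2a1 was then -2.38 (edgeR adjusted p = 0.0674) and that of Slc16a3 -5.65 (adjusted p = 0.0774). With the transcript length trend removed 4 members were called, and the median of the list was -1.79, against -0.23 for all genes. With the surrogate variables that sva estimated as terms of the model 0 were called, and the median of the list was -0.33.

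The hypoxia response core, ACGTG, is the shared part of the sites that hypoxia-inducible factors bind. In the RefSeq promoters on GRCm38.p6, read on either strand over 250 bases before the transcription start, it was present in 20 of the 30 genes of this list that had a promoter entry (66.7%), in 3 of the 6 matched genes called lower (Slc2a1, Slc16a3 and Pkm), in 4 of the 25 matched genes called higher (16%), and in 24.4% of the 11169 tested genes with an entry. A core can lie inside the longer E-box CACGTG, which was present in 9.65% of those genes. The promoters of both transporters that fell are shown, as the genes of the list with the largest changes, with the core in capitals. They lie at chr4:119108495-119108744 and chr11:120948817-120949066, both on the plus strand. A match is a description of letters only. The list was picked for the hypoxia response, and Slc2a1, Slc16a3 and Pkm are members of it, so these shares are not independent of that choice.
Slc2a1: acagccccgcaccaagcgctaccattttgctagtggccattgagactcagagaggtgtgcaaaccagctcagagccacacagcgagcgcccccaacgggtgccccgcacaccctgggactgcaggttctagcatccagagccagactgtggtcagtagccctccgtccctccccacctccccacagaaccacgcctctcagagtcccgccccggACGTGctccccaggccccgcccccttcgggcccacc
Slc16a3: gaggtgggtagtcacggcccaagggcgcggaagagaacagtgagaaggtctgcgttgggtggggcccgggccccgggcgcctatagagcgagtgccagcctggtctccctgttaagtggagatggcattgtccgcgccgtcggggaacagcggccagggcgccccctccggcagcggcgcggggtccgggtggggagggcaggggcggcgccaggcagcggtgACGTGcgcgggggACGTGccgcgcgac
In Slc2a1 the core began 36 bases before the start, and in Slc16a3 there was a pair of cores, which began 27 and 14 bases before it.

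The basal keratinocyte and its grip on the basement membrane were read from a list of 17 genes. Krt14 (chromosome 11, 100203162 to 100207548), the type I keratin of basal keratinocytes, was the most abundant of the genes called. It had 16476, 12093 and 14649 CPM at 1w pw1 and 4240.1, 3734 and 3975 CPM at 1w pw2, so that the ranges of the groups were far apart and the spread within each was small. Its level was 3.62-fold lower, with a log2 fold change of -1.85 (standard error 0.29, edgeR adjusted p = 0.0111). Krt5, its type II partner in the same filament, had 4504, 5481 and 5841 CPM at 1w pw1 and 3924, 3896 and 3904 CPM at 1w pw2. The groups of Krt5 did not overlap either, and its log2 fold change of -0.43 did not pass the test (adjusted p = 0.337). Lama5, the laminin chain of resting basement membrane, had 106, 90.6 and 67.4 CPM at 1w pw1 and 126, 169 and 238 CPM at 1w pw2 (adjusted p = 0.139). Of the 17 genes, 2 fell, with Krt14 among them, and 0 rose. In 6 (35.3%) 1w pw2 lay below 1w pw1 and in 2 (11.8%) above, and the median of the list was -0.40. It was -0.06 without replicate 1 of 1w pw1, and the log2 fold change of Krt14 was then -1.75 (adjusted p = 0.0573).

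Of 36 tested genes of migration, proteases and protrusions, 2 fell, with Tpm2 among them, and 0 rose. Tpm2, a tropomyosin that lies along actin filaments, had 346, 190.2 and 216 CPM at 1w pw1 and 70.7, 30.0 and 65.5 CPM at 1w pw2, a 4.53-fold lower level (adjusted p = 0.0397). In 12 of the 36 (33.3%) the libraries of 1w pw2 lay below those of 1w pw1 and in 1 above, with a list median of -0.60. Members that did not pass the test include Itga5, the fibronectin receptor chain, with 81.9, 16.4 and 23.3 CPM at 1w pw1 and 5.84, 8.83 and 9.41 CPM at 1w pw2 (adjusted p = 0.119), and Cfl1, an actin-severing cofilin, with 1192, 816 and 755 CPM at 1w pw1 and 557, 408 and 395 CPM at 1w pw2 (adjusted p = 0.119). A pair of cytoskeletal and guidance genes outside the list also fell. Tubb6, a beta-tubulin, had 559, 225 and 257 CPM at 1w pw1 and 76.9, 17.7 and 19.95 CPM at 1w pw2, or 9.01-fold lower (adjusted p = 0.0285). Slit1, a secreted guidance ligand of Robo receptors, had 60.3, 7.36 and 7.23 CPM at 1w pw1 and 1 count in each library of 1w pw2 (adjusted p = 0.0314).

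The keratinocyte state that skin takes on after injury was read from 21 tested genes, and 0 of them passed the test. In 9 (42.9%, against 11.0% of all genes) 1w pw2 lay below 1w pw1, in 1 (4.76%, against 13.7%) above, and the median log2 fold change was -0.88. Krt6a, the stress keratin of activated epidermis and of the companion layer, had 2583, 1939 and 2922 CPM at 1w pw1 and 887, 1152 and 1155 CPM at 1w pw2 (log2 fold change -1.22, adjusted p = 0.164). Krt6b, its close relative, had 965, 593 and 563 CPM at 1w pw1 and 90.4, 162 and 179 CPM at 1w pw2 (adjusted p = 0.0902). The sequences of these keratins are alike, so the authors' counting may have split reads between them unevenly. Fabp5, a carrier of fatty acids in activated epidermis, had 3127, 529.9 and 1269 CPM at 1w pw1 and 157, 169.8 and 139 CPM at 1w pw2 (adjusted p = 0.0656). None of these 3 genes overlapped between the groups, but members of a list were named in part by their p in these same libraries. Areg, the EGF receptor ligand amphiregulin, had 27.7, 7.36 and 11.7 CPM at 1w pw1 and 0 counts in all libraries of 1w pw2 (adjusted p = 0.0764), while Spry1, a feedback inhibitor of the same pathway, had 2.94, 15.3 and 25.7 CPM at 1w pw1 and 39.9, 80.8 and 81.7 CPM at 1w pw2 (adjusted p = 0.124). Dusp5, another feedback gene, went the other way, with log2 fold changes from -4.17 to -2.46 over the 23 alternative settings. It was not called in the main fit and was called under 2 of those settings. The 23 tested genes of EGF receptor signalling and ERK feedback had a median of 0.09, with 4 above (17.4%, against 13.7%) and 3 below (13.0%, against 11.0%).

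Of 40 cell cycle genes, 0 passed the test, 17 (42.5%) had 1w pw2 below 1w pw1, 1 had it above, and the median was -0.75. Tk1, which makes thymidine phosphate for DNA synthesis, had 106, 112 and 136 CPM at 1w pw1 and 53.8, 57.6 and 43.3 CPM at 1w pw2 (adjusted p = 0.189). Ube2c, which drives exit from mitosis, had 139, 70.2 and 77.4 CPM at 1w pw1 and 26.7, 8.83 and 52.3 CPM at 1w pw2 (adjusted p = 0.190). The member that lay above was Ccnd2, a G1 cyclin, with 146, 84.9 and 92.9 CPM at 1w pw1 and 413, 175 and 220.2 CPM at 1w pw2 (adjusted p = 0.133).

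Lists of genes that most cells use had medians below 0 as well. Of 85 tested genes of the cytoplasmic ribosome, 60 (70.6%) had every library of 1w pw2 below those of 1w pw1, 0 had it above, 0 passed the test, and the median was -0.82. Rps2, a protein of the small subunit, had 441, 273 and 352 CPM at 1w pw1 and 206, 149 and 117 CPM at 1w pw2 (adjusted p = 0.0928). Of 46 nuclear genes for subunits of the respiratory chain and ATP synthase, 33 (71.7%) lay below, 0 above, 0 passed the test and the median was -0.76. Cox6a1, a subunit of cytochrome oxidase, had 572, 390.0 and 484 CPM at 1w pw1 and 215, 201 and 213 CPM at 1w pw2 (adjusted p = 0.0766). The 15 genes that mitochondria encode had a median of -0.24, with 3 below and 0 above. In the 24 genes of the NRF2 antioxidant response the median was -0.72, with 7 below and 0 above. Gpx1, a glutathione peroxidase, had 703, 468 and 631 CPM at 1w pw1 and 265, 252 and 256 CPM at 1w pw2 (adjusted p = 0.0694). Among 21 genes of the endoplasmic reticulum and its unfolded protein response 8 (38.1%) lay below and 0 above, with a median of -0.49, and 16 heat shock genes had a median of -0.17.

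The change followed the length of the transcript. The genes tested were put in 5 bins of equal size by their longest transcript in GENCODE. The median log2 fold change was -0.51 in the bin of the shortest transcripts (56 to 1294 bases), -0.05, 0.10 and 0.31 in the next bins, and 0.59 in the bin of the longest (4864 to 123179 bases). The share of genes with 1w pw2 below 1w pw1 went from 27.5% in the shortest bin to 2.98% in the longest, and the share with 1w pw2 above from 5.54% to 25.5%. The skew lay in the libraries of 1w pw1. Relative to each gene's mean over the 18 Lgr5 GL libraries, the longest bin minus the shortest was -1.01, -0.67 and -1.10 on the log2 scale in the 3 libraries of 1w pw1, and -0.22, 0.44 and 0.31 in those of 1w pw2. In the other 12 libraries it ran from -0.31 to 0.89, so all 3 libraries of 1w pw1 lay below the other 15. The list medians stand beside this. The median transcript length was 1047 bases for the ribosomal protein list and 1386.5 for the respiratory list, against 2893 for all genes tested, and 4153 for the genes called higher. With the length trend of each library removed, the median of all genes was -0.23, that of the ribosomal protein list -0.81, of the respiratory list -0.77, of the cell cycle list -1.19 and of the migration list -1.18. The naming rule given below chose 38 called genes, 31 higher and 7 lower. With the length trend removed, 15 of the higher and 7 of the lower ones were called, and all 38 kept their sign. Gata3, Npnt, Creb5, Cep120, Cgnl1 and Cilp were among those no longer called. With the surrogate variables that sva estimated in the model, the medians were 0.036 for the ribosomal protein list, -0.11 for the respiratory list and -0.15 for the migration list. Beyond this removal, the part of transcript length in the list medians was not tested.

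**Figure D2:**
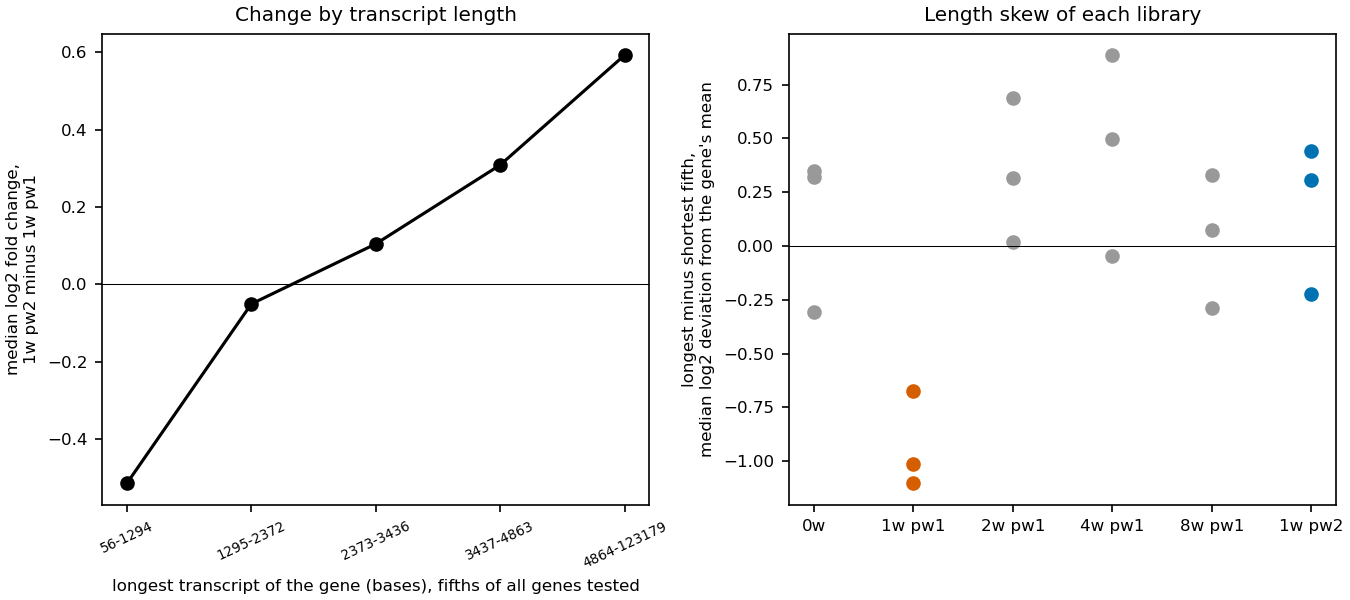
Left, median log2 fold change, 1w pw2 minus 1w pw1, in 5 bins of genes by the length of their longest transcript in bases, from -0.51 to 0.59. Right, for each of the 18 Lgr5 GL libraries, the median log2 deviation from the gene's mean in the longest bin minus that in the shortest, where the 3 libraries of 1w pw1 (orange) are the lowest and those of 1w pw2 (blue) lie among the rest.

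Immediate early genes, which are switched on within minutes of a stimulus, stood on the other side. Of 34 genes, all tested, 1 rose, Jun, and 0 fell. In 17 (50%, against 13.7% of all genes) every library of 1w pw2 lay above those of 1w pw1, in 1 below, and the median log2 fold change was 0.74. Jun (chromosome 4, 95049034 to 95052222), a subunit of AP-1, had 128, 232 and 282 CPM at 1w pw1 and 932, 1042 and 698 CPM at 1w pw2, a 4.16-fold higher level. Fos, its partner in AP-1, had 34.2, 67.4 and 52.4 CPM at 1w pw1 and 243, 296 and 148 CPM at 1w pw2 (log2 fold change 2.16, adjusted p = 0.152). Zfp36, which binds and destabilizes inflammatory mRNAs, had 34.2, 31.1 and 52.1 CPM at 1w pw1 and 215, 268 and 169.8 CPM at 1w pw2 (adjusted p = 0.0627). Fosb had 2 counts over the libraries of 1w pw1 and 24.2, 22.2 and 9.41 CPM at 1w pw2 (adjusted p = 0.0705). Atf3, a stress-induced factor of the ATF family, had 0 counts at 1w pw1 and 2.33, 8.66 and 15.4 CPM at 1w pw2, which is at least 8.21-fold higher than a floor of 3 counts per library, and its test did not pass (adjusted p = 0.0982). None of these 5 genes overlapped between the groups, while Junb did, with 592, 367 and 294 CPM at 1w pw1 and 639, 1054 and 563 CPM at 1w pw2. Members of a list were named in part by their p in these same libraries, so groups apart are no separate support. Without replicate 1 of 1w pw1, 24 of the 34 (70.6%, against 19.1% of all genes) lay above, and Jun had a log2 fold change of 1.79 (adjusted p = 0.0774). With the length trend removed the median of the list was 0.44, against -0.23 for all genes. Jun, at a log2 fold change of 1.63 in place of 2.06, was then no longer called (edgeR adjusted p = 0.0563).

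Creb5, a CREB family factor that pairs with Jun and binds the cyclic AMP response element (CRE), rose as well. Its level was 12.1, 24.9 and 37.2 CPM at 1w pw1 and 97.9, 202 and 123 CPM at 1w pw2, or 5.65-fold higher (adjusted p = 0.0355). A full CRE, TGACGTCA, was present in the promoters of 1 of the 25 matched genes called higher, Creb5 itself, and in 2.95% of all tested genes with an entry. AP-1 sites, TGACTCA, were also present in 1 of these 25 genes and in 4.25% of all. The Creb5 promoter (chr6:53287053-53287302, plus strand, RefSeq on GRCm38.p6) is shown for this element, in capitals, which begins 45 bases before the start and overlaps an E-box.
Creb5: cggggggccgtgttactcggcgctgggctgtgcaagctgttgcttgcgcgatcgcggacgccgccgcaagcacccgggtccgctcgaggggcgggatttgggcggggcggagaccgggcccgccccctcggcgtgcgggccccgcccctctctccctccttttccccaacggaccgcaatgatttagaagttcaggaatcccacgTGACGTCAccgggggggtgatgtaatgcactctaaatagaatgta

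Genes of the HF itself lay mostly higher after the second wound. Of 25 tested genes of the hair shaft, matrix and inner root sheath, 3 rose (Gata3, Krt28 and Dlx3) and 0 fell, 8 (32.0%) lay above and 0 below, and the median was 1.74. Gata3 (chromosome 2, 9857078 to 9890034), which specifies the inner root sheath, had 32.9, 59.4 and 39.2 CPM at 1w pw1 and 159.5, 143 and 164 CPM at 1w pw2, a 3.56-fold higher level (adjusted p = 0.0111). Krt28, a keratin of the inner root sheath, had 2 counts over the libraries of 1w pw1 and 17.0, 7.66 and 6.02 CPM at 1w pw2. Its ratio of counts per total was 61.1, with an exact 95% interval of 16.7 to 508 that covers counting error only. Dlx3, a homeobox factor of hair differentiation, had 0.326, 0.566 and 1.27 CPM at 1w pw1 and 18.2, 14.5 and 21.1 CPM at 1w pw2 (adjusted p = 0.0285). Without replicate 1 of 1w pw1 none of the 3 was called, while their log2 fold changes were 1.67 for Gata3, 6.004 for Krt28 and 4.10 for Dlx3. Then 9 of the 25 (36%, against 19.1% of all genes) lay above and the median was 1.63. With the length trend removed Krt28 and Dlx3 were called. Gata3, at a log2 fold change of 1.38 in place of 1.83, was not (edgeR adjusted p = 0.0647). Krt35, a hair shaft keratin, did not pass, with 0.326, 0.566 and 0.542 CPM at 1w pw1 and 13.6, 9.33 and 10.9 CPM at 1w pw2 (adjusted p = 0.126).

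In the hair germ and companion layer, 0 of 10 genes passed, 5 (50%) lay above and 0 below, and the median was 1.30. The log2 fold change was above 0 in 7 members and below 0 in 3. The summed level of the list was 2545, 4846 and 9617 CPM at 1w pw1 and 5281, 2789 and 3679 CPM at 1w pw2. Krt17, a keratin of this list, had log2 fold changes from -1.17 to -0.24 over the 23 alternative settings. Bmp6, a ligand of the bulge niche, had 1.96, 3.96 and 0 CPM at 1w pw1 and 34.4, 14.996 and 41.0 CPM at 1w pw2 (adjusted p = 0.0537). Krt75, the companion layer keratin, had 1.30, 10.8 and 5.06 CPM at 1w pw1 and 80.9, 30.7 and 146 CPM at 1w pw2 (adjusted p = 0.0705). Ptch1, the receptor and target of Hedgehog signals, had 32.3, 9.62 and 23.9 CPM at 1w pw1 and 99.98, 102 and 164 CPM at 1w pw2 (adjusted p = 0.0979).

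In the bulge list 0 of 18 genes passed, 6 (33.3%) lay above and 0 below, with a median of 0.86. Lgr5, whose promoter drove the labelling, had 31.3, 168 and 191 CPM at 1w pw1 and 311, 425 and 209 CPM at 1w pw2 (log2 fold change 1.28, adjusted p = 0.231). Replicate 1 of 1w pw1 was the lowest by far, and the other 5 libraries were closer together. Nfib, a chromatin regulator of HF stem cells, had 209, 296 and 341 CPM at 1w pw1 and 676, 803 and 558 CPM at 1w pw2 (adjusted p = 0.0605). Sox9, which keeps bulge cells in place, had 432, 897 and 946 CPM at 1w pw1 and 1580.1, 1357 and 1438 CPM at 1w pw2 (adjusted p = 0.143). Krt15 overlapped between the groups, with 4036, 7503 and 10190.4 CPM at 1w pw1 and 14704, 10096 and 10767 CPM at 1w pw2. In bulk pools, fewer cells of a type and less RNA per cell cannot be told apart. Without replicate 1 of 1w pw1 the median of the bulge list was 0.47. The 14 genes of the junctional zone and infundibulum, the upper part of the HF, had a median of 0.11, with 1 (7.14%) above and 2 (14.3%) below. Lrig1, the marker of that zone, had 73.7, 121 and 80.1 CPM at 1w pw1 and 88.7, 99.6 and 103 CPM at 1w pw2 (adjusted p = 0.933). For 24 genes of suprabasal and cornified differentiation the median was -0.39, with 4 (16.7%, against 13.7% of all genes) above and 3 (12.5%, against 11.0%) below. Without replicate 1 of 1w pw1 this median was -0.16.

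Wnt signals switch resting HF stem cells into growth. Of 27 tested genes of the Wnt pathway 0 passed, 13 (48.1%, against 13.7%) lay above, 1 below, and the median was 0.89. Among the receptors, Fzd1 and Lgr4 had log2 fold changes of 1.05 and 1.03 (adjusted p = 0.165 and 0.169), and Znrf3, a feedback inhibitor that removes Wnt receptors, had 86.1, 121 and 107 CPM at 1w pw1 and 269, 255 and 210.1 CPM at 1w pw2 (adjusted p = 0.129). Wnt3, a ligand, had 0 counts at 1w pw1 and 5.06, 2.33 and 13.2 CPM at 1w pw2, at least 6.39-fold above a floor of 3 counts per library (adjusted p = 0.0984). Wnt6, a ligand that was not in the list, was called. It had 1 count in each library of 1w pw1 and 11.4, 9.83 and 5.27 CPM at 1w pw2, a ratio of 34.0 (exact 95% counting interval 11.4 to 167), and it was not called once the trend on GC content or on length was removed, where its log2 fold change was 4.39 (adjusted p = 0.0523) and 4.44 (adjusted p = 0.0566) in place of 4.67. In the other signalling lists the medians were 0.55 for TGF-beta and BMP (27 genes, 9 or 33.3% above, 1 or 3.70% below) and 0.38 for Notch (15 genes, 4 or 26.7% above, 0 below), with 0 members passing in both. Id1, a target of BMP, had 62.3, 106 and 54.6 CPM at 1w pw1 and 201, 232 and 121 CPM at 1w pw2 (adjusted p = 0.0930). With the length trend removed these medians were 0.48 for Wnt, 0.00 for TGF-beta and BMP and -0.19 for Notch. The sign of the Notch median turned, while the median of all genes moved from 0.09 to -0.23.

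The remaining genes that rose are given in an order that was made after their values were seen, and no list stands behind it. Col14a1 (chromosome 15, 55307750 to 55520803), a collagen that decorates fibrils, had 0.979, 1.70 and 0.904 CPM at 1w pw1 and 14.1, 28.2 and 59.5 CPM at 1w pw2, or 29.3-fold higher (adjusted p = 0.0111). Fras1, a protein of the epithelial basement membrane, had 1.63, 4.53 and 1.45 CPM at 1w pw1 and 26.2, 20.7 and 27.5 CPM at 1w pw2, or 10.4-fold higher. Npnt, or nephronectin, with which the bulge anchors the arrector pili muscle, had 21.2, 26.6 and 22.8 CPM at 1w pw1 and 72.7, 101 and 96.0 CPM at 1w pw2, or 3.82-fold higher (adjusted p = 0.0188). Adamts9, a secreted protease of proteoglycans, had 2.94, 2.26 and 2.17 CPM at 1w pw1 and 39.4, 99.8 and 32.8 CPM at 1w pw2 (adjusted p = 0.0149). Cilp, a matrix protein of cartilage, had 1 count over the libraries of 1w pw1 and 29.0, 17.2 and 18.1 CPM at 1w pw2 (count ratio 237, exact 95% counting interval 42.4 to 9404).

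Rif1 (chromosome 2, 52072832 to 52122383), which sets the time of replication and guards broken ends, had 4.57, 4.53 and 3.80 CPM at 1w pw1 and 26.8, 66.6 and 53.8 CPM at 1w pw2, or 11.4-fold higher (adjusted p = 0.0111). Fance, of the Fanconi anaemia complex that repairs crosslinks, had 3.59, 2.83 and 8.86 CPM at 1w pw1 and 40.2, 34.2 and 21.1 CPM at 1w pw2. Cep120, a protein of the centriole, had 2.94, 0 and 0.904 CPM at 1w pw1 and 21.7, 23.3 and 19.6 CPM at 1w pw2 (adjusted p = 0.0319). Col14a1, Rif1, Cep120 and Peli2 were the named genes called without replicate 1 of 1w pw1, and Col14a1 and Rif1 passed with any 1 of the 6 libraries left out.

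Among surface and secreted proteins, Scnn1b (chromosome 7, 121865038 to 121918514), a subunit of the epithelial sodium channel, had 1 count over the libraries of 1w pw1 and 23.7, 18.5 and 15.8 CPM at 1w pw2 (count ratio 213, exact 95% counting interval 37.9 to 8428). Edn1, the peptide endothelin-1, had 0 counts at 1w pw1 and 18.5, 13.0 and 12.8 CPM at 1w pw2, at least 13.8-fold higher. Gramd1c and Fam69b were at 0 counts at 1w pw1 as well, and lay at least 15.2-fold and 8.43-fold higher at 1w pw2. Cgnl1, a protein of tight junctions, was 7.46-fold higher, with 77.4, 139 and 106 CPM at 1w pw2. Of the transcription factors, Sox13 had 29.4, 49.8 and 59.3 CPM at 1w pw1 and 213, 177 and 282 CPM at 1w pw2, and Mafk, a small Maf protein, had 6.85, 6.79 and 14.6 CPM at 1w pw1 and 32.0, 39.5 and 48.6 CPM at 1w pw2. The other named genes that rose were Fbxo33, Farp1, Secisbp2l, BC005561, Tmtc1, Paqr6, Tcf20, Tut7 and Peli2, with log2 fold changes from 1.43 for Tcf20 to 4.80 for Fbxo33. In none of the genes called did the groups overlap, but the same libraries chose these genes.

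In the remaining lists 0 members passed the test. Of 34 genes of Polycomb and H2A ubiquitin, which hold genes silent, 7 (20.6%) lay above and 1 (2.94%) below, with a median of 0.41. With the length trend removed the median was -0.15, against -0.23 for all genes. Usp21, an H2A deubiquitinase, had 18.3, 19.2 and 19.0 CPM at 1w pw1 and 59.5, 54.2 and 48.2 CPM at 1w pw2 (adjusted p = 0.0738). Of 24 genes of epidermal lipids, 3 (12.5%, against 13.7% of all genes) lay above and 0 below (median 0.72). Of 24 genes of cell junctions, 3 (12.5%) lay above and 3 (12.5%, against 11.0% of all genes) below (median 0.04). The shares above in both lists, and the share below in the junction list, were thus near those of all genes. Of 23 genes of the interferon response, 6 (26.1%) lay above and 1 (4.35%) below (median 0.01). The 1 below was Ifitm3, a membrane protein that blocks virus entry, with 275, 396 and 416 CPM at 1w pw1 and 121, 123 and 73.8 CPM at 1w pw2 (edgeR adjusted p = 0.0814). Of 6 long RNAs that stay in the nucleus, 3 lay above and 0 below (median 1.45). Malat1 had 592, 463 and 446 CPM at 1w pw1 and 1875, 3184 and 1645 CPM at 1w pw2 (adjusted p = 0.0613).

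**Figure D3:**
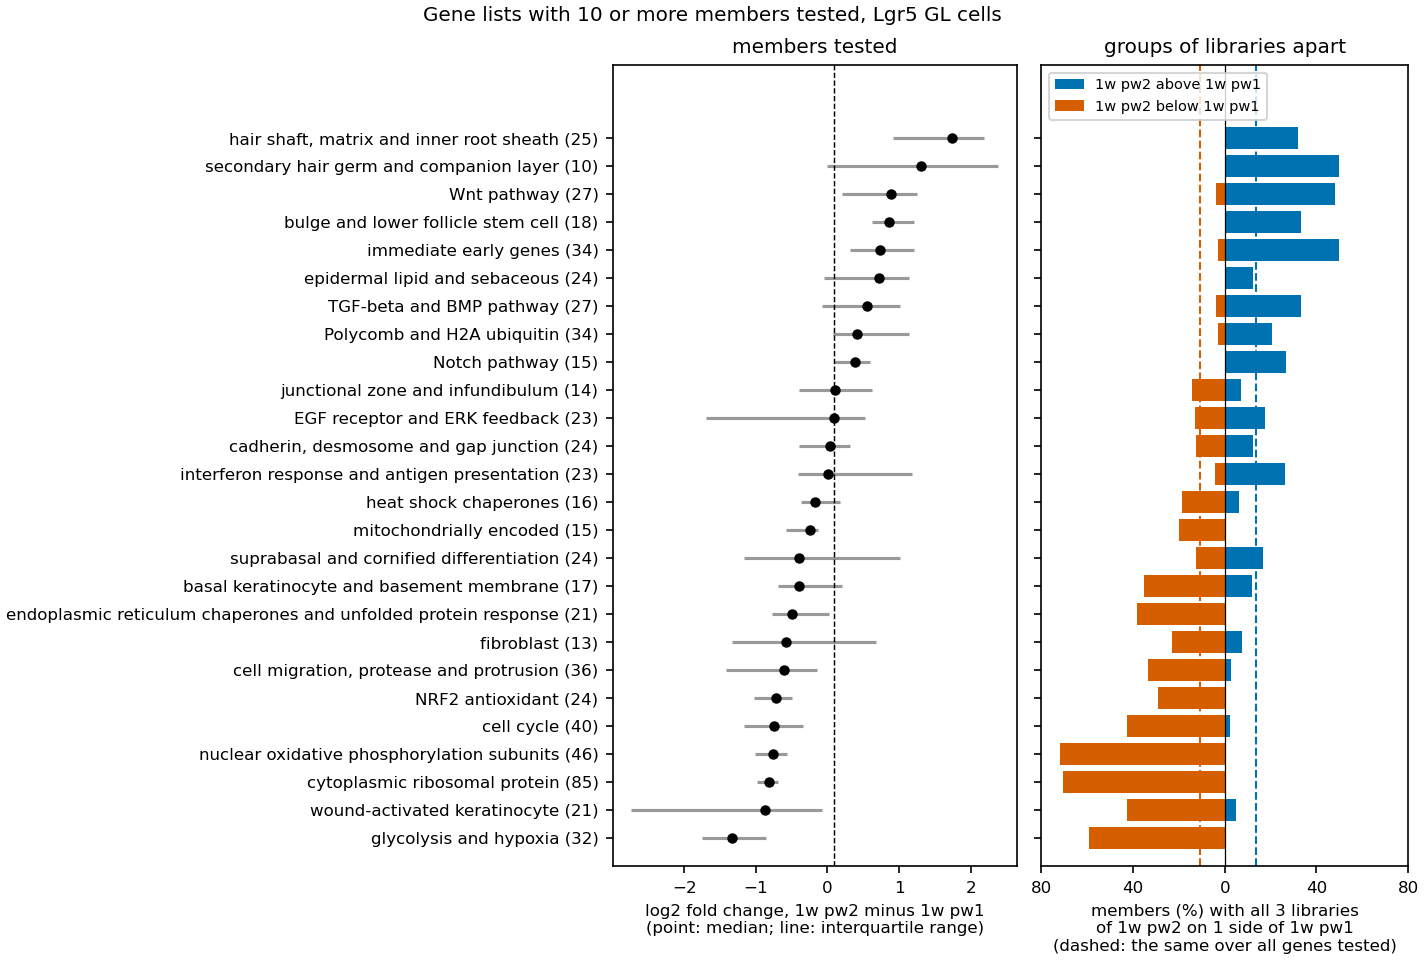
Gene lists with 10 or more members tested, with the number in brackets. Left, the median (point) and the interquartile range (line) of the members' log2 fold changes, 1w pw2 minus 1w pw1, with a dashed line at the median of all genes, 0.09. Right, the percent of members whose 3 libraries of 1w pw2 lay all above (blue) or all below (orange) those of 1w pw1, with dashed lines at the 13.7% and 11.0% of all genes. Glycolysis lies lowest by its median and the hair shaft list highest.

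Markers of other cell types were followed to see what else the sorted pools held. Of 20 immune cell genes 7 had values, and their summed level was 79.6, 13.6 and 2.17 CPM at 1w pw1 and 19.8, 10.2 and 10.5 CPM at 1w pw2. The 13 fibroblast genes summed to between 419 and 667 CPM at 1w pw1 and between 398 and 589 CPM at 1w pw2, with 1 above and 3 below, and Col1a1 at 47.9, 29.4 and 32.5 CPM at 1w pw1 and 14.5, 19.2 and 18.8 CPM at 1w pw2. The sums of the melanocyte list were between 11.4 and 20.4 CPM at 1w pw1 and between 22.0 and 36.6 CPM at 1w pw2. Those of the endothelial list were between 5.42 and 26.6 CPM and between 11.5 and 15.995 CPM, and those of the Merkel cell list between 14.7 and 60.7 CPM and between 35.0 and 74.3 CPM. The muscle list summed to between 194 and 427 CPM at 1w pw1 and between 78.3 and 176 CPM at 1w pw2. The genes defining T cells (Cd3e), macrophages (C1qa, Lyz2) and melanocytes (Tyr, Tyrp1) were on these lists but had no values, so they were not analysed here. Of 4 Y-linked genes 2 had values, which summed to 1.63, 4.53 and 1.99 CPM at 1w pw1. At 1w pw2 their sums were 0.259, 0.9997 and 2.26 CPM, and the sex of each library was not tested. The part of other cells in the changes above was not tested.

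The levels at the other time points place the 1w pw1 and 1w pw2 libraries in the course of repair. The comparisons with 0w share libraries with the one above, so their values are set side by side only. Before the first wound (0w) Krt14 averaged 4978 CPM and Slc2a1 114 CPM. The means of 1w pw1 were 14406 CPM for Krt14 and 956 CPM for Slc2a1. Krt14 then averaged 4962, 4684 and 3879.9 CPM at 2w, 4w and 8w pw1 and 3983 CPM after the second wound, and Slc2a1 283, 110.0 and 108 CPM at 2w, 4w and 8w pw1 and 105 CPM after the second wound. In both genes the high level was that of 1w pw1, and the other 5 time points were closer together. The same shape in the other direction was seen in Rif1, with 32.5 CPM at 0w, 47.3, 46.0 and 35.7 at 2w, 4w and 8w pw1, 49.1 at 1w pw2 and 4.30 at 1w pw1. So too for Gata3, which averaged 43.9 CPM at 1w pw1 and 151, 148, 126, 181 and 155 CPM at 0w, 2w, 4w and 8w pw1 and 1w pw2. Jun had another course, with 185 and 214 CPM at 0w and 1w pw1, 388, 412 and 525 at 2w, 4w and 8w pw1 and 891 at 1w pw2. Dlx3 was highest at 4w pw1, with 45.8 CPM. The log2 fold changes of Krt14 against 0w were 1.53 at 1w pw1 (edgeR adjusted p = 0.0197) and -0.32 at 1w pw2 (adjusted p = 0.985). Those of Jun were 0.21 (adjusted p = 0.775) and 2.27 (adjusted p = 0.0690). All 11 genes called lower in the main comparison were called higher in the comparison of 1w pw1 with 0w. Of the 37 called higher, 22 were called lower there. When 1w pw2 was compared with 0w, 0 of the 48 were called. The libraries of 1w pw1 also chose these genes, so the counts are not independent of that choice. The share of all genes tested that was called in either comparison with 0w is not given here, so these counts have no background. A gene not called against 0w may still have changed.

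**Figure D4:**
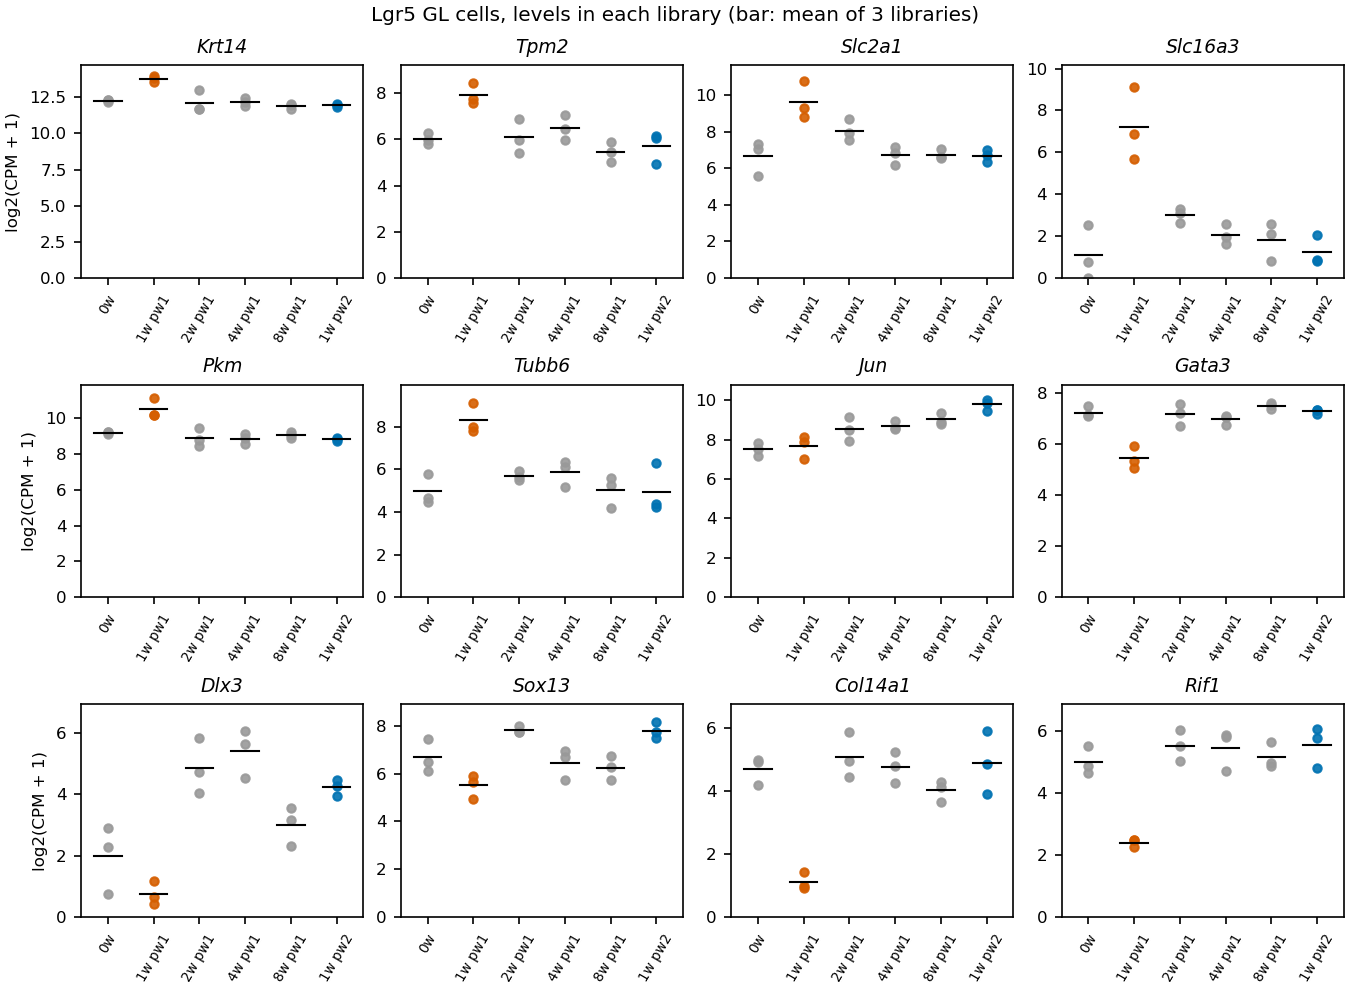
Levels of 12 called genes in log2(CPM + 1) in each of the 18 Lgr5 GL libraries by time point, with a bar at the mean of the 3 libraries. Orange points are 1w pw1, blue points 1w pw2 and grey points the other times. In Krt14, Slc2a1 and Rif1 the libraries of 1w pw1 lie apart from the rest, whereas Jun is highest at 1w pw2.

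The same comparison in Lrig1 GL cells, the progeny of stem cells of the junctional zone, was fitted apart, since the counts of each population were deposited and scaled as separate tables. Of 14306 genes tested there edgeR called 0, although 1269 had an unadjusted p under 0.05. Both populations gave a test for 45 of the 48 genes called in Lgr5 GL cells. The median log2 fold change of the 34 higher ones was 3.45 in Lgr5 GL and 0.03 in Lrig1 GL cells, and that of the 11 lower ones was -2.18 in Lgr5 GL and -0.87 in Lrig1 GL cells. Values in Lgr5 GL cells are those that chose these genes, so the gap between the medians is no test. The test of the difference itself called 15 of 13980 genes (0.107%), and 2 of the 45 were among them. For Rif1, the difference of the second wound from the first was larger by 2.89 on the log2 scale in Lgr5 GL cells (standard error 0.57, adjusted p = 0.0379). For Scnn1b the fitted difference depends on libraries at 0 counts. In Lrig1 GL cells it had 0.949, 0 and 12.003 CPM at 1w pw1 and 0 CPM in all libraries of 1w pw2. The difference did not pass for Slc2a1 (-2.59, adjusted p = 0.0664), Slc16a3 (-6.07, adjusted p = 0.0539), Krt14 (-1.20, adjusted p = 0.175), Gata3 (1.20, adjusted p = 0.275) or Jun (1.11, adjusted p = 0.428). Npnt had a log2 fold change of 1.67 in Lrig1 GL cells (standard error 1.06).

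**Figure D5:**
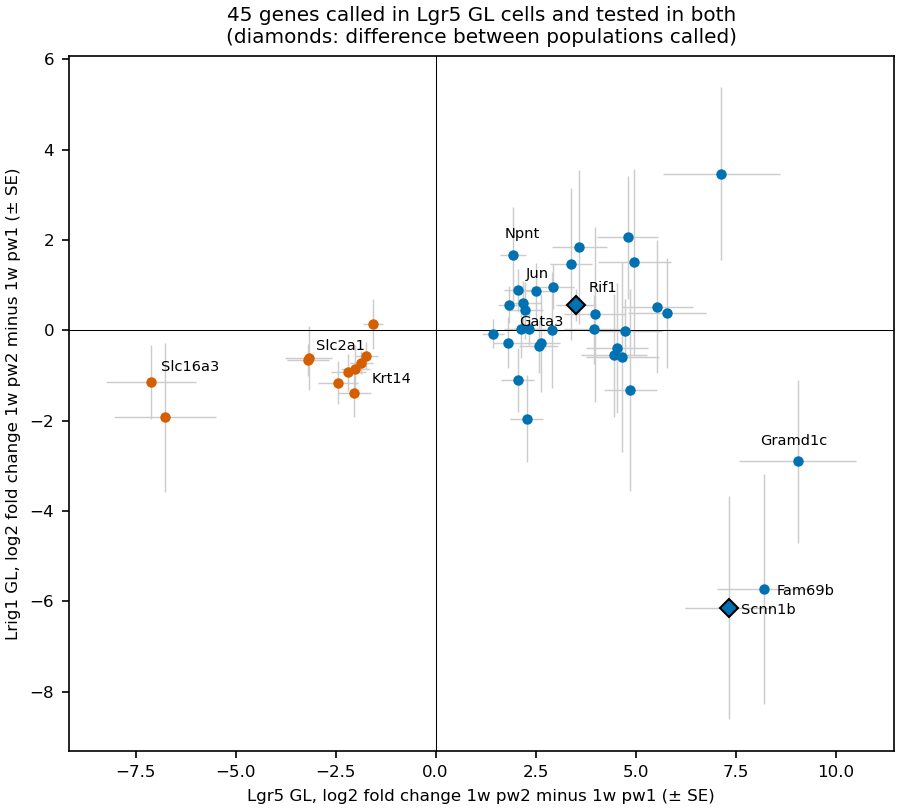
Log2 fold changes, 1w pw2 minus 1w pw1, of the 45 genes called in Lgr5 GL cells and tested in both populations, in Lgr5 GL cells (x axis) and in Lrig1 GL cells (y axis), with bars of 1 standard error. Genes called lower (orange) lie at -0.87 by their median in Lrig1 GL cells and those called higher (blue) at 0.03, and diamonds mark Rif1 and Scnn1b, for which the difference between populations was called.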

How the data were processed

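Small pools of sorted tdTomato+ cells were measured by full-length mini-bulk RNA-seq with oligo(dT) priming. Per the labels and the study's methods, the authors trimmed the reads with Trim Galore 0.5.0, aligned them to GRCm38 (mm10) with HISAT2 and ran featureCounts over exons, summed by gene name from GENCODE release M20. The authors deposited the resulting read counts without normalization, in 1 table per population. Versions of the other tools are not given here, and whether counting used strand is not given in the sources used here. Overlapping genes, paralogs and pseudogene copies, such as Eno1b and Gm5855 among the genes called, can share reads.

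Groups came from the labels. Every gene of the deposited Lgr5 GL table had at least 1 CPM in 3 or more libraries. All 18 Lgr5 GL libraries (6 time points) entered 1 edgeR 4.0.16 model in R 4.3.3, with filterByExpr at its minimum of 10 counts, TMM factors from 0.668 to 1.23 and a prior count of 0.125. The contrast of 1w pw2 with 1w pw1 was tested by the quasi-likelihood F-test, with Benjamini-Hochberg adjusted p under 0.05 over all genes tested and no cutoff on the fold. CPM values are scaled by TMM. The difference between populations was tested in 1 model of 12 groups. With 3 libraries per group an exact permutation test of a single gene cannot give a two-sided p below 0.1. Gene lists are described by counts and medians, beside the same values over all genes, and were not tested as sets.

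The members and lists were chosen with earlier results of these data known. Named genes were those called with a mean of 10 counts or more and groups apart (at most 40 by p, those named Gm or Rik counted but not named), the called members, up to 4 members with the smallest p and the 2 most abundant of each list, a few genes fixed by name (Lgr5, Lrig1, Krt14, Krt5, Krt6a, Jun, Fos, Slc2a1 and Gm12415), and genes whose change differed between populations. Genes of this set whose direction turned under an alternative are given by list counts only, apart from Lrig1 and Gm12415. A few genes that the rule chose are not reported here. Positions, lengths and GC content came from GENCODE release M21 on GRCm38, and promoters from RefSeq, which matched 11169 of 18025 genes tested.

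Alternatives were DESeq2 size factors, upper quartile factors, other filters, surrogate variables from sva 3.50.0, DESeq2 1.42.0, limma-voom (limma 3.58.1), the likelihood ratio test, a robust fit, thinning, a GC trend, a replicate block and leaving out each library. The transcript length trend, and counts of groups apart without replicate 1 of 1w pw1, were added after seeing the data. The fits were tested on simulated data. For the main comparison, 1 of 50 genes changed 2-fold and 8 of 50 changed 4-fold were called. For the difference between populations these counts were 0 and 3 of 50. A gene that did not pass may therefore still have changed.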

Additional observations from a re-analysis of the deposited data

Results flagged for a closer look

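The difference of the second wound from the first was not the same in Lgr5 GL and Lrig1 GL cells for 15 of 13980 genes, by a test of the difference itself in 1 edgeR model of all 12 groups (quasi-likelihood F-test, adjusted p under 0.05). Values are the log2 fold change in Lgr5 GL minus that in Lrig1 GL cells. It was positive for 6 genes, with 13.82 for Scnn1b, 4.17 for Camsap1, which binds the minus ends of microtubules, 2.89 for Rif1, 2.33 for the kinase Map4k4, 2.09 for Prrc2b and 2.07 for Nisch. The value of Scnn1b is fitted on libraries at 0 counts and is no measure of size. It was negative for 9 genes, with -3.62 for Gng5, a G protein subunit, -2.80 for Dcun1d5, -2.66 for Fam213a, -2.62 for Ppp1r14c, -2.33 for Hsd17b12, an enzyme of long-chain fatty acid elongation, -2.23 for Erp44, -2.19 for Hsp90b1, -1.99 for Cct8 and -1.93 for Txndc17. Erp44, Hsp90b1 and Cct8 help proteins to fold, the first pair of them in the endoplasmic reticulum. In the 13 genes other than Rif1 and Scnn1b neither population passed its own test, and the log2 fold changes had opposite signs in the populations. For Hsp90b1 they were -0.96 in Lgr5 GL (adjusted p = 0.0774 from edgeR) and 1.17 in Lrig1 GL cells (adjusted p = 0.360), and for Gng5 -1.47 (adjusted p = 0.129) and 2.09 (adjusted p = 0.289). Without replicate 1 of 1w pw1, and without replicate 2 or replicate 3 of 1w pw2, 0 genes passed, with 1578, 1472 and 1511 at an unadjusted p under 0.05.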

How the results depend on the processing

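The main comparison called 48 genes. With only its own 6 libraries in the fit, and with the replicate number as a block over them, 0 were called (2360 and 2081 at an unadjusted p under 0.05), and with the surrogate variables that sva estimated 0 (1809), with 2 of them 1. The labels tie no number to a mouse, and the correlations of the deviations of same-numbered libraries were 0.017, 0.0075 and -0.072, so the block pairs numbers only. More genes were called with libraries thinned to the same total, in which the share of Gm12415 still differed (73), the likelihood ratio test (765), DESeq2's Wald test (1067), limma-voom (131) and a threshold of 0.1 (297). Leaving out single libraries gave from 6 to 116. Of the members of all lists 11 were called, 0 with only the 6 libraries, the replicate block or surrogate variables (the estimated number or 2), 18 after thinning, and from 0 to 17 with a library left out. Of the 38 called genes that the naming rule chose, 0 were called with those 4 settings, 24 with limma-voom, 22 with the length trend removed and from 4 to 30 with a library left out, and none changed sign under any of the 23 settings. The difference between populations, called in 15 genes, was called in 2 with no filter, 250 by the likelihood ratio test, 29 with only the 12 libraries of both times, 9 with the replicate block and from 0 to 54 with a library left out. Other settings stayed within 1.5 times of the main counts. The list medians kept their sign under all 18 settings run for them in 18 of 32 lists. With the surrogate variables that sva estimated, the ribosomal protein list turned to 0.036 and the endoplasmic reticulum list to 0.025, and the medians were 0.91 for the hair shaft, 0.33 for the bulge, 0.56 for the Wnt, 0.12 for the TGF-beta and BMP, -0.32 for the wound-activated and -0.089 for the NRF2 list. The Notch and Polycomb lists turned with the length trend removed, where the median of all genes was -0.23. The endothelial list turned with only the 6 libraries, the lists of suprabasal, mitochondrially encoded and heat shock genes under 2 settings each, and those of Merkel cells under 3, the junctional zone under 5, interferon genes (where some medians came to 0) and EGF receptor genes under 6, cell junctions under 7 and immune cells under 10. Lrig1, with a log2 fold change of 0.09, turned to -0.60 and -0.61 with the estimated number of surrogate variables or 2, -0.16 and -0.52 with the GC or length trend removed and from -0.043 (without replicate 1 of 1w pw1) to 0.34 with a library left out, and Gm12415, at -1.17, turned to 0.078 and 0.29 with the surrogate variables. Causes were not tested. Depth limits genes near the floor of 3 counts.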
